A study of Caenorhabditis elegans with 3 samples.

Results

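The genes described here are 39 Caenorhabditis elegans genes of synaptic transmission: the machinery of vesicle release and recycling, dense-core vesicles and peptide processing, and the synthesis, loading and uptake of small transmitters. They were chosen by name from a list, and a gene was counted as measured if the array annotation gave it a probe of its own. Of the 39, 36 had such a probe. The neighbouring genes unc-17 and cha-1 shared 1 probe, annotated as unc-17 but carrying the transcript accession that RefSeq now gives to cha-1, and it is written unc-17/cha-1 below. The serotonin transporter gene mod-5 had no single-gene probe and is not analysed here. This left 37 member features on 43 probes, all measured on all 3 arrays, of 19580 features tested in all.

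Neurons store small transmitters in synaptic vesicles, which fuse with the plasma membrane when calcium enters, and store neuropeptides in dense-core vesicles, where precursors are cut and trimmed. In the worm, fusion proteins are shared by most neurons, while the enzymes and carriers of a given transmitter mark the neurons that use it. Some of these genes also act outside neurons: tyramine synthesis is known from the uterine uv1 cells, octopamine synthesis from the gonadal sheath, and ida-1 from uv1 cells.

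The study used 3 two-colour arrays. Each paired L3 larval RNA of the mutant glp-4 (preps 1, 3 and 4, total RNA) with a wild-type mixed reference, the single control RNA. Mutants of glp-4 are known for a small germ line; the labels give neither allele nor temperature, nor what was mixed in the reference. Genotype and stage differ together, and whether the preps were separate cultures is not stated, so p-values measure only the spread between 3 samples, which may be technical. Values are log2 ratios, each array centred on its median, and positive values are read as higher in glp-4 L3, the likely direction; were it opposite, each direction would turn. Since these are whole animals, fewer cells of a type and less RNA per cell cannot be told apart.

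The array of prep 1 stood apart from the arrays of preps 3 and 4. Letters in the array titles, whose meaning the labels do not give, and what reads as a date there split the preps in the same way. On preps 1, 3 and 4 the log2 ratios of all probes had an SD of 0.71, 0.963 and 1.139. Germ line and oocyte markers were lower for 30 of 32, with a median of -2.89, -2.59 and -3.02 on preps 1, 3 and 4; such genes were part of the basis for reading the direction. Muscle markers were higher for 12 of 19 (medians 0.634, 1.06 and 1.18) and intestine markers for 13 of 20 (1.66, 1.32 and 0.976), and none of either was lower (limma, adjusted p under 0.05 or unadjusted p under 0.05).

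Most of the synaptic genes lay near the reference, and 4 passed the test. The tyrosine decarboxylase gene tdc-1, the dense-core vesicle membrane gene ida-1 and the convertase gene egl-3 were lower in glp-4 L3. The aromatic amino acid decarboxylase gene bas-1 was higher. Thus 3 of 37 member features were lower, or 8.11%, where 8.37% of all features were (limma, Benjamini-Hochberg adjusted p under 0.05 over all features), and 1 was higher, or 2.70%, where 8.26% of all features were. At an unadjusted limma p under 0.05 the counts were 6 lower and 3 higher, beside 18.2% lower and 17.1% higher among all features. The shares called lower are near the background and are not a result about the members as a group.

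The median of the 37 member means was -0.12, beside -3.2e-05 for all features. Of the 37, 26 had a mean within 0.5 log2 units of 0 (70.3%, where 59.9% of all features did). For 26 the 95% limma interval lay inside 1 log2 unit either side of 0, so for these a difference of more than 2-fold is outside the interval. Below 0 on all arrays were 13 features and above 0 on all arrays 6, where 29.4% and 29.1% of all features were.

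**Figure D1:**
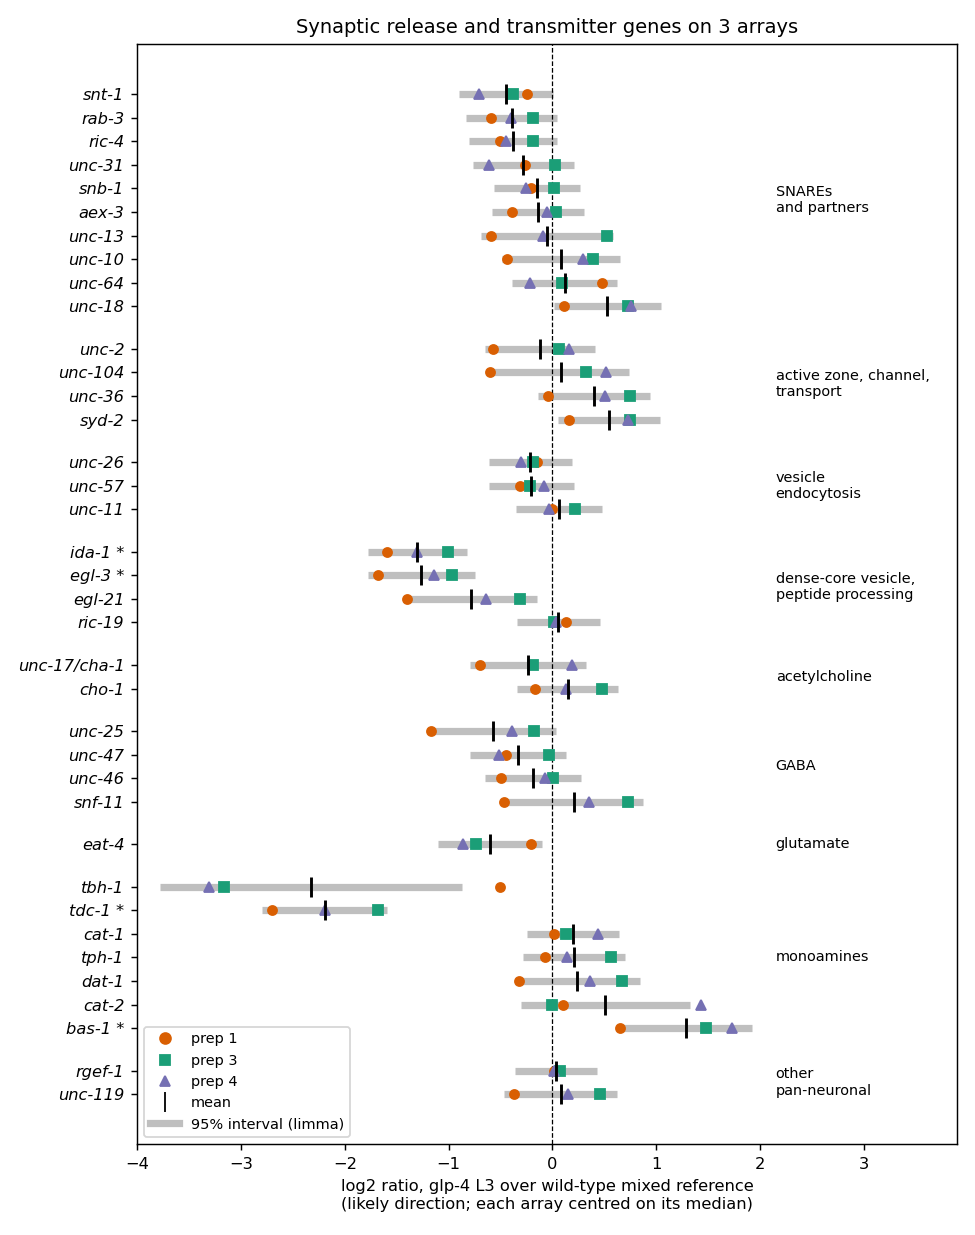
Log2 ratio of glp-4 L3 over the wild-type mixed reference (x axis, likely direction) for each of the 37 member features (y axis, grouped by role), with 1 symbol per array, the mean as a black bar and the 95% limma interval in grey; an asterisk marks adjusted p under 0.05. The points of tdc-1, ida-1, egl-3 and bas-1 lie on 1 side of 0 on all 3 arrays, while tbh-1 has preps 3 and 4 near -3.2 and prep 1 at -0.51.

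Among the 10 genes of vesicle docking and fusion, none was called in either direction (limma; at an unadjusted p under 0.05, 0 lower and 1 higher), and the median of their means was -0.14. The lowest was snt-1, the synaptotagmin gene of the calcium sensor, at -0.25, -0.38 and -0.71 on preps 1, 3 and 4, a mean of -0.45 ± 0.24 (SD, n = 3; limma adjusted p = 0.144). The highest was unc-18, whose product binds syntaxin, at 0.11, 0.73 and 0.75, a mean of 0.53 ± 0.36 (limma adjusted p = 0.133). The values of snt-1 lie below 0 on every array and those of unc-18 above 0, so these partners in 1 fusion step lay on opposite sides of the median probe without passing the test.

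The 3 SNARE genes, whose proteins form the fusion complex itself, were close to the reference. The vesicle SNARE synaptobrevin, snb-1, was at -0.15 ± 0.14 and the plasma membrane SNARE gene ric-4 at -0.38 ± 0.17. Syntaxin, unc-64, was at 0.12 ± 0.35, with 0.48 on prep 1 and -0.22 on prep 4. Thus ric-4 was below 0 on all arrays, while snb-1 and unc-64 crossed it. The vesicle GTPase gene rab-3 was at -0.39 ± 0.21 and below 0 on each array, and aex-3, its exchange factor, was at -0.14 ± 0.22. The priming factor gene unc-13 had 0.53 on prep 3 against -0.60 on prep 1, and its mean of -0.053 ± 0.56 carries little information beyond that spread. Both probes of unc-10, the gene of the active zone protein RIM, lay on the same side of 0 on each array, and the gene was at 0.083 ± 0.45. The gene unc-31, for the CAPS protein of dense-core vesicle release, was at -0.28 ± 0.32.

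Genes of the active zone, of calcium entry and of vesicle transport had a median of 0.24, and none of the 4 was called (limma; at an unadjusted p under 0.05, 0 lower and 1 higher). The liprin gene syd-2, an organiser of active zones, was at 0.16, 0.75 and 0.72 on preps 1, 3 and 4, a mean of 0.54 ± 0.33 (limma adjusted p = 0.119). The calcium channel gene unc-2 was lowest, at -0.57, 0.061 and 0.15, a mean of -0.12 ± 0.39. Its accessory subunit gene unc-36 was at 0.40 ± 0.41 from 3 probes, and the vesicle kinesin gene unc-104 was at 0.081 ± 0.60. All 4 genes were lower on prep 1 than on both other arrays. For unc-104 the gap was widest, from -0.60 on prep 1 to 0.33 and 0.51.

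The 3 genes of vesicle endocytosis varied least between arrays of all the roles, with a median SD of 0.11, where the median SD of all 37 features was 0.35. Synaptojanin, unc-26, was lowest at -0.15, -0.19 and -0.30, a mean of -0.21 ± 0.082. The clathrin adaptor gene unc-11 was highest at 0.00017, 0.21 and -0.034, a mean of 0.060 ± 0.13. Endophilin, unc-57, was at -0.21 ± 0.11. The remaining pan-neuronal genes were also close to 0: rgef-1, a Ras exchange factor used as a pan-neuronal marker, was at 0.012, 0.076 and 0.013, and unc-119 at -0.37, 0.46 and 0.15. None of these 5 was called (limma; none at an unadjusted p under 0.05).

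Dense-core vesicle genes were the lowest role by median, at -1.02, with 2 of 4 lower, where 8.37% of all features were. The role held 4 genes, and unc-31, counted above with the fusion genes, was at -0.28. The gene ida-1, for a receptor phosphatase-like protein of the dense-core vesicle membrane, was at -1.60, -1.004 and -1.30 on preps 1, 3 and 4. Its mean was -1.30 ± 0.30, or 2.46-fold lower in glp-4 L3 (95% interval -1.78 to -0.83; limma adjusted p = 0.0121). The proprotein convertase gene egl-3, which cuts neuropeptide precursors, was at -1.68, -0.97 and -1.14, a mean of -1.26 ± 0.37 (2.40-fold lower; limma adjusted p = 0.0163). Both were lower on each array than all 10 fusion genes on that array.

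The next enzyme of the pathway is the carboxypeptidase egl-21, which removes the basic residues left by the convertase. It was at -1.40, -0.32 and -0.64, a mean of -0.79 ± 0.56, and did not pass (95% interval -1.42 to -0.15; limma adjusted p = 0.0917). It was below all 10 fusion genes on prep 1 and below 9 of 10 on preps 3 and 4. By contrast, ric-19, which acts in dense-core vesicle maturation, was at 0.13, 0.010 and 0.033, a mean of 0.057 ± 0.061, with an interval of -0.34 to 0.46. The genes ida-1, egl-3 and egl-21 were thus below 0 on every array while ric-19 was not. Without prep 1, ida-1 and egl-3 were both called, at -1.15 and -1.05 (limma adjusted p = 0.00989 and 0.0115). Both calls were lost without prep 3, at -1.45 and -1.41 (0.0747 and 0.0883), without prep 4, at -1.30 and -1.32 (0.0558 and 0.0603), and with the arrays scaled to 1 spread, at -1.44 and -1.43 (0.0578 and 0.073).

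From a list of 17 further dense-core vesicle genes 12 were measured. The list median was 0.069, with 3 lower and 3 higher at an unadjusted limma p under 0.05. After adjustment limma called 3 of the 12 lower (25%) and 1 higher (8.33%), beside 8.37% and 8.26% of all features. The lower ones were pgal-1, the lyase of peptide amidation, at -0.89, -1.06 and -1.21, and sbt-1, whose product is a chaperone of the EGL-3 convertase, at -0.79, -0.96 and -1.40. Their means were -1.05 ± 0.16 and -1.05 ± 0.31 (limma adjusted p = 0.0155 and 0.0231). The third, cab-1, which interacts with AEX-3, was at -0.77 ± 0.25 (limma adjusted p = 0.0439). The higher one was aex-5, a convertase gene of the defecation programme, at 0.92 ± 0.18 (limma adjusted p = 0.0236). Other processing genes of the list, cpd-1, bli-4 and cpd-2, were added here after their values were seen and did not pass. Of these, cpd-1 and bli-4 lay above 0 on all arrays. In contrast, cpd-2 crossed 0, at -0.10, -0.16 and 0.033 on preps 1, 3 and 4 (limma adjusted p = 0.754). The carboxypeptidase gene cpd-1 was at 0.38, 0.91 and 0.53 (limma adjusted p = 0.0832), and the convertase gene bli-4 was at 0.30, 0.47 and 0.091 (0.275). Genes of peptide processing thus lay on both sides of the reference. Without prep 3 or without prep 4, none of the dense-core list was called (limma; at an unadjusted p under 0.05, 3 lower and 1 higher in either case).

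The monoamine genes spanned the whole range of the members, from the lowest mean to the highest. Tyrosine decarboxylase, tdc-1, which makes tyramine, was at -2.70, -1.68 and -2.19 on preps 1, 3 and 4. Its mean of -2.19 ± 0.51 is 4.57-fold lower in glp-4 L3 (95% interval -2.79 to -1.59; limma adjusted p = 0.00623), and 1.52% of all features had a mean at or below it. It was also called without prep 1, without prep 3 and without prep 4. With the arrays scaled to 1 spread it missed the threshold at an adjusted p of 0.0509.

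The enzyme that follows it, tyramine beta-hydroxylase, makes octopamine and is encoded by tbh-1. This gene was at -0.51 on prep 1, -3.16 on prep 3 and -3.31 on prep 4, a mean of -2.33 ± 1.58 that did not pass (limma adjusted p = 0.051). It had the lowest mean of all members and also the widest spread. Without prep 1 its mean was -3.23 and it was called (limma adjusted p = 0.00107), as it was under quantile normalization (0.0267), with the arrays scaled to 1 spread (0.0381) and with array weights (0.00311). It did not pass without prep 3 (limma adjusted p = 0.234), without prep 4 (0.186) or with a robust variance prior (0.0785). Nor did it pass with values as deposited (0.051), features on at least 2 arrays (0.0535) or each probe alone (0.0526). The order of the pair changed between arrays, since tdc-1 was the lower of them on prep 1 and tbh-1 on preps 3 and 4.

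Markers of uterine uv1 cells and of the gonadal sheath were measured for 8 of 9 genes, of which 1 was lower and none higher (limma; at an unadjusted p under 0.05, 3 lower and 0 higher), with list medians of -0.29, -0.29 and -0.54 on preps 1, 3 and 4. Of these, picked after their values were seen, the uv1 neuropeptide gene nlp-2 was at -0.52, -1.53 and -2.04 (limma adjusted p = 0.0425). The sheath innexin gene inx-8 was at -0.34, -1.61 and -1.99 and did not pass (limma adjusted p = 0.0578). These genes had the lowest means of the list, -1.36 and -1.31. The means of the others were nearer 0, and none passed. They were -0.12 for ocr-1, -0.30 for ocr-2, -0.44 for nlp-7, -0.22 for lim-7, -0.53 for inx-9 and 0.30 for ceh-18. Like tbh-1, nlp-2 and inx-8 were nearer 0 on prep 1 than on the other arrays. In contrast, tdc-1, ida-1 and egl-3 were farthest from 0 on prep 1. Of the 8 markers, 5 lay above both other arrays on prep 1 and 2 lay below both. The latter were lim-7, at -0.35, -0.23 and -0.086 on preps 1, 3 and 4, and ceh-18, at -0.035, 0.39 and 0.56. What part these cells have in the values of tdc-1, tbh-1 and ida-1 was not tested.

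The gene bas-1, for the decarboxylase shared by serotonin and dopamine synthesis, was the highest member at 0.65, 1.48 and 1.73. Its mean of 1.28 ± 0.57 is 2.44-fold higher in glp-4 L3 (95% interval 0.64 to 1.92; limma adjusted p = 0.0282). It was above every other member on each array, and the enzymes that act before it were not called. Tyrosine hydroxylase, cat-2, which starts dopamine synthesis, had 1.43 on prep 4 against 0.099 and -0.0015 on preps 1 and 3, and its mean of 0.51 ± 0.80 rests on that array. Tryptophan hydroxylase, tph-1, which starts serotonin synthesis, was at 0.21 ± 0.33. The vesicular monoamine transporter gene cat-1 was at 0.20 ± 0.22 and above 0 on all arrays, and the dopamine transporter gene dat-1 was at 0.24 ± 0.51. Without prep 1, bas-1 was called at 1.604 (limma adjusted p = 0.00388), and the call was lost without prep 3, at 1.19 (0.182), and without prep 4, at 1.06 (0.114).

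For acetylcholine, the unc-17/cha-1 probe stands for the vesicular acetylcholine transporter and choline acetyltransferase, whose genes overlap. It was at -0.70, -0.18 and 0.19 on preps 1, 3 and 4, a mean of -0.23 ± 0.44 (95% interval -0.79 to 0.33). The choline transporter gene cho-1 was at -0.17, 0.48 and 0.13, a mean of 0.15 ± 0.32. Neither was called (limma; none at an unadjusted p under 0.05), and both crossed 0 between arrays.

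Of the 4 GABA genes none was called (limma; none at an unadjusted p under 0.05), and their median was -0.26. Glutamic acid decarboxylase, unc-25, which makes GABA, was lowest at -1.17, -0.18 and -0.39, a mean of -0.58 ± 0.52 (limma adjusted p = 0.156). The vesicular GABA transporter gene unc-47 was at -0.33 ± 0.26, and unc-46, which sorts that transporter to vesicles, was at -0.19 ± 0.27. The plasma membrane GABA transporter gene snf-11 was highest at -0.47, 0.73 and 0.35, a mean of 0.20 ± 0.61. On prep 1 all 4 were below 0, while on prep 3 the values ran from -0.18 to 0.73.

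The vesicular glutamate transporter gene eat-4 was at -0.21, -0.74 and -0.86, a mean of -0.60 ± 0.35, below 0 on all arrays without passing (limma adjusted p = 0.0988). Without prep 1 it was called at -0.80 (limma adjusted p = 0.0253).

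Most members were lower on the array of prep 1 than on the others. On prep 1, 26 of 37 member features (70.3%) lay below both preps 3 and 4, where 41.6% of all features did. Above both lay 6 members, as did 6875 of all 19580 features. The lower values on prep 1 were not particular to the members. Below both were 20 of 28 release regulators (71.4%) and 18 of 30 other active zone and transport genes (60%). The same held for 95 of the 166 genes in 6 lists of related genes (57.2%), but for only 33.3% of sensory and cilium genes. The member median was -0.33 on prep 1, 0.026 on prep 3 and -0.057 on prep 4. The median absolute difference between preps 3 and 4 was 0.25 for members and 0.29 for all features, while between preps 1 and 3 it was 0.59 and 0.36. Muscle markers were below both other arrays on prep 1 for 14 of 19 and intestine markers for 7 of 20; with 1 array on 1 side of the split in the titles, it cannot be told apart from the preps themselves.

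**Figure D2:**
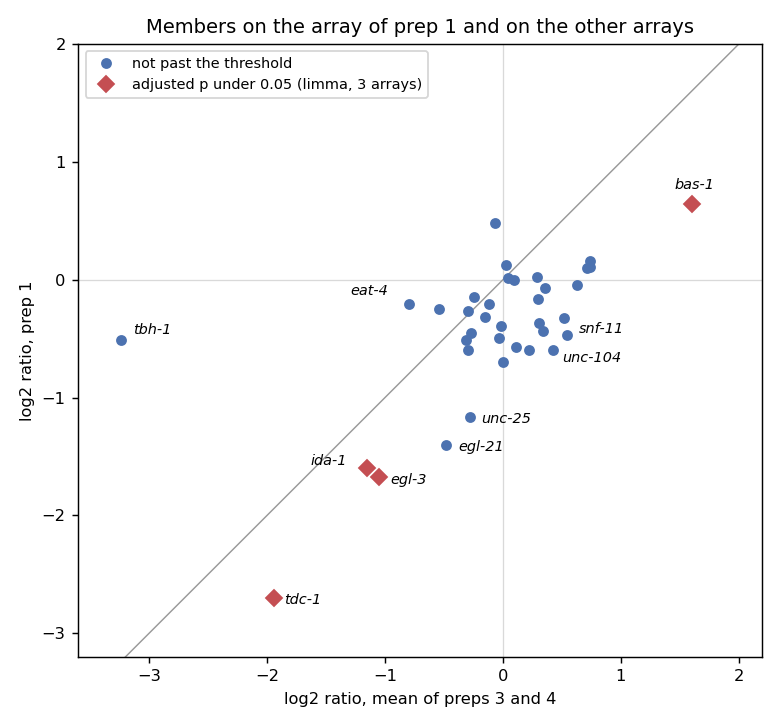
Log2 ratio of each of the 37 member features on the array of prep 1 (y axis) against the mean of preps 3 and 4 (x axis), with the line of equal values; diamonds passed the limma test on all 3 arrays. Most points lie below the line, 26 of 37 being lower on prep 1 than on both other arrays, and tbh-1 stands far above it.

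The calls followed the preps used. Without prep 1, 5 members were lower (beside 17.6% of all features) and 3 higher (beside 16.3%), and all 4 calls made with 3 preps were among them; the added ones were eat-4 and tbh-1 below and unc-18 and syd-2 above. Without prep 3, tdc-1 alone was lower (beside 1.08%) and none was higher (beside 0.883%); at an unadjusted limma p under 0.05 there were 5 lower and 1 higher. Without prep 4 it was again tdc-1 alone (beside 3.11% lower and 3.19% higher), with the same unadjusted counts. Each of these fits has fewer arrays than the whole. The unadjusted counts have no share over all features beside them, so no excess is read from them.

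Beyond the members, 6 lists of other genes of the same processes held 166 measured genes, with a median of 0.12. Limma called 8 of these lower (4.82%) and 12 higher (7.23%). Both shares are below those of all features, 8.37% and 8.26%. Of 42 receptor genes for these transmitters none was called (limma; at an unadjusted p under 0.05, 2 lower and 2 higher), and their median was 0.053. Of 22 other vesicle fusion and endocytosis genes, 1 was lower, the synaptotagmin family gene snt-4, at -1.31 ± 0.091, while snt-1 did not pass. Of 28 release regulators, dgk-1, a diacylglycerol kinase that dampens release, was lower at -1.27 ± 0.28 and kin-2, the regulatory subunit of protein kinase A, was higher at 0.90 ± 0.34. Of 30 other genes of active zones and axonal transport, fsn-1, an F-box gene of synapse formation, was lower at -1.27 ± 0.12 and dlk-1, a kinase of axon regeneration, higher at 0.91 ± 0.088.

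Other genes of transmitter synthesis, uptake and breakdown were called higher for 9 of 32 and lower for 2 (limma), and their median was 0.44. These are 28.1% higher and 6.25% lower, beside 8.26% and 8.37% of all features. The highest were the choline kinase genes ckb-2 (1.79 ± 0.65), ckb-1 (1.57 ± 0.47) and ckb-4 (1.22 ± 0.62), gta-1, the GABA transaminase gene (1.53 ± 0.20), and the amine oxidase family gene amx-3 (1.32 ± 0.50). The lower ones were glt-5, of the glutamate transporter family (-1.33 ± 0.12), and anat-1, an amine acetyltransferase gene (-1.14 ± 0.24). Several of these enzymes also serve general metabolism outside neurons, so the list is not specific to neurons. Of 35 neuron identity transcription factors, 1 was lower, egl-46, at -0.81 ± 0.19, and the list median was -0.21. At an unadjusted limma p under 0.05, 8 of these 35 were lower and 1 higher, beside 18.2% and 17.1% of all features. Of 39 sensory and cilium genes none was called (limma; at an unadjusted p under 0.05, 4 lower and 0 higher), and of 10 glial markers 2 were higher. Without prep 3, none of the 166 genes of the 6 lists was called (limma, with 9 lower and 11 higher at an unadjusted p under 0.05). Without prep 4, 169 genes of the lists were measured, of which 3 were lower and 4 higher.

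**Figure D3:**
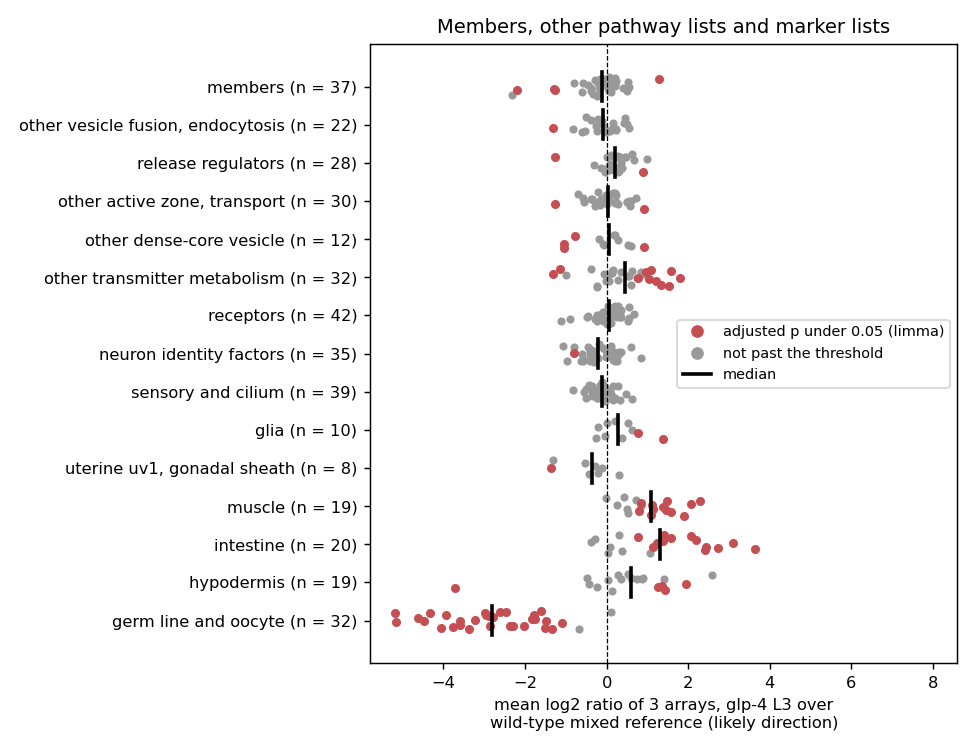
Mean log2 ratio over 3 arrays (x axis, likely direction) of each measured gene in the member set, in other lists of synaptic and neuronal genes and in marker lists of other cells (y axis, n in each label), with medians as black bars and genes past the limma threshold in red. The medians of the members and of the neuronal lists lie between -0.21 and 0.44, those of muscle and intestine at 1.08 and 1.31, and that of germ line and oocyte markers at -2.82.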

How the data were processed

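The deposited table was used. To judge by the deposited numbers, each value is the log2 of the ratio between an array's channels. How the authors scanned, background-corrected and normalized the arrays is not given in the sources used here. Without intensities, probes near background cannot be told from others, and 3 arrays limit the precision. Per the labels, channel 1 held the reference and channel 2 held glp-4; dyes are not named. Gene names came from the platform annotation (1 gene for 16450 probes, several for 247, none for 4935), updated through RefSeq assembly WBcel235 for 16360 probes by gene number and 8 by accession. The probes' build is not named, so coordinates and chromosomes were not used, and sequences and promoter motifs were not analysed here.

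Arrays were centred on their medians (deposited medians -0.0072, -0.025 and -0.026), probes of a gene averaged, and the mean of each of 19580 features measured on all 3 arrays tested against 0 with limma 3.58.1 (R 4.3.3; lmFit, eBayes, Benjamini-Hochberg over all features, threshold 0.05). The reference is 1 control RNA, so its own spread is left out. Named from the other lists were up to 5 genes past the threshold in each direction. The members, lists and tests were chosen with earlier results of these data known. The procedure was tested on simulated data. Alternatives were uncentred values, arrays scaled to 1 spread, quantile normalization, array weights, a robust prior, features on 2 or more arrays, single probes, and each prep left out.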

Additional observations from a re-analysis of the deposited data

How the results depend on the processing

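No member mean past the threshold changed sign under any alternative. With values as deposited, features on at least 2 arrays, each probe alone or a robust variance prior, 3 members were lower and 1 higher, as reported. Beside them 1610 to 1699 features were lower and 1580 to 1710 higher, of 19580 to 21000 tested. Quantile normalization gave 4 and 1 members, beside 1954 lower and 1990 higher features of 19580. Scaling the arrays to 1 spread left 1 lower (tbh-1 in place of tdc-1, ida-1 and egl-3) and 1 higher. It gave 1487 lower and 1553 higher features of 19580. Array weights (0.452, 2.68 and 0.825 for preps 1, 3 and 4) gave 5 lower and 4 higher members, 4161 lower and 3938 higher features, and 19 lower and 37 higher genes of the 6 pathway lists, beside 1638 and 1617 features and 8 and 12 list genes as reported. Leaving out 1 prep gave 1 to 5 lower and 0 to 3 higher members, 212 to 3464 lower and 174 to 3211 higher features, and 0 to 15 lower and 0 to 29 higher list genes, the highest in each case without prep 1 and the lowest of features without prep 3. These fits rest on 2 arrays. Causes were not tested. No paired analysis was possible because there is a single group. Members with several probes were 5, on 11 probes; for unc-11 and unc-2 the probe means lay on both sides of 0.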
